A study of Mus musculus with 18 samples.

Results

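Amino acid transporter genes were taken as all genes whose single symbol places them in the solute carrier families Slc1a, Slc6a, Slc7a, Slc36a, Slc38a or Slc43a, or is Slc3a1 or Slc3a2. The rule found 64 of the 19938 genes with 1 symbol on the array. They comprised 7 genes of the Slc1a family, 2 of Slc3a, 21 of Slc6a, 16 of Slc7a, 4 of Slc36a, 11 of Slc38a and 3 of Slc43a. Slc6a19os and Slc7a6os, named as transcripts on the opposite strand of a carrier gene, matched by name only, and the other 62 encode carriers or carrier subunits. Several members of the Slc6a family carry neurotransmitters, creatine or taurine, and Slc43a3 carries purine nucleobases, so the rule covers more than amino acid carriers in the strict sense.

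Alveolar type II cells, the surfactant-making epithelial cells of the lung, were isolated from mice of 7 to 8 weeks, and their RNA was read on 18 microarrays. All mice carried floxed alleles of Cebpa, which encodes the transcription factor C/EBPα. In the Cebpa-deleted mice, labelled CCSP/rtTA/CEBPa(flx/flx), the gene was deleted in airway Clara cells from early in gestation and in type II cells from near term, with CCSP being the Clara cell secretory protein whose promoter is used for lung epithelium. The controls were littermates that lacked either the rtTA or the Cre transgene, and each genotype was studied after 0, 2 and 24 h of hyperoxia, which gave 6 groups of 3 arrays. Air is written in every sample description, so hyperoxia at 2 and 24 h is known from the design text alone. The labels do not tie arrays to separate animals, so p-values measure only the spread between these arrays, which may be technical.

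Carriers of the Slc1a, Slc6a, Slc36a and Slc38a families use sodium or proton gradients to bring amino acids into cells, whereas most Slc7a proteins exchange one amino acid for another and need a heavy chain, Slc3a1 or Slc3a2, to reach the membrane. When amino acids run short or the endoplasmic reticulum is stressed, the kinase arm that phosphorylates eIF2α raises the transcription factor ATF4, which induces several of these carriers together with asparagine synthetase and aminoacyl-tRNA synthetases. Cystine brought in by Slc7a11 and glutamate supply the glutathione that protects lung epithelium from oxidants. C/EBP proteins form dimers with each other and with ATF4.

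Deletion was read first in Cebpa itself. Cebpa in the deleted cells was at 74.3% of control at 0 h, which did not pass (adjusted p = 0.429), at 46.6% at 2 h (adjusted p = 0.00461) and at 28.1% at 24 h (adjusted p = 8.19e-06). The mean of 14 type II markers lay between 11.3 and 13.0 on the log2 scale on every array, and at 24 h 13 of the 14 were lower in deleted cells, with array means of 11.3 to 11.7 against 12.1 to 12.2. Endothelial markers were higher in deleted cells, 9 of 16 at 0 h, 13 of 16 at 2 h and 15 of 16 at 24 h, where 1 was lower, while of all genes 0.677%, 1.2% and 24.3% were higher. At 24 h 8 of 12 fibroblast and smooth muscle markers, 7 of 10 lymphocyte, 4 of 14 macrophage, 3 of 8 airway and 1 of 8 neutrophil markers were also higher, none of 4 platelet and 2 red cell markers passed, and 6 of 8 type I cell markers and 2 macrophage markers were lower, against 26.4% of all genes. The arrays also differed in width: the interquartile range was 2.89 to 3.06 on the 6 arrays at 0 h, 2.13 to 2.55 at 2 h, 2.44 to 2.52 in control cells at 24 h and 1.82 to 2.13 in deleted cells at 24 h. On narrower arrays dim features read higher and bright features lower, and 37 members lay among the brightest 60 percent of genes, ranked by mean level, and 27 among the dimmest 40 percent. In bulk RNA, fewer cells of a type and less RNA per cell cannot be told apart.

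Throughout, each gene is given by the RMA value of 1 feature in log2 units. A gene passed the test at an adjusted p below 0.05 in a limma fit to all 18 arrays, with Benjamini-Hochberg adjustment over all 19938 genes. Values of a group are given in order of the replicate numbers, which were 1, 2 and 3, except 2, 3 and 4 in deleted cells at 2 h and 1, 2 and 4 in deleted cells at 24 h. Differences are Cebpa-deleted minus control, or the later time minus the earlier. Levels of different genes are not compared, because they come from different probes.

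Before hyperoxia no transporter gene passed the test between genotypes in the limma fit, against 0.858% of all genes; 2 of the 64 members had an unadjusted p below 0.05. The differences of the members ran from -0.62 for Slc38a4 to 0.54 for Slc7a8, with a median of 0.00. The lowest of these genes, Slc38a4, a sodium-coupled carrier of neutral and cationic amino acids, read 9.83, 10.09 and 10.12 in controls and 9.32, 9.42 and 9.45 in deleted cells. These groups did not overlap, yet the difference did not pass the test (SE 0.33, adjusted p = 0.612). That SE is pooled over all 6 groups. The SD of Slc38a4 before hyperoxia was 0.16 in controls and 0.07 in deleted cells. In deleted cells the SD was 0.68 at 2 h and 0.76 at 24 h. A separate fit, restricted to the 2 groups compared, called 2 members, 1 higher and 1 lower, against 0.717% of all genes. That count does not name the members.

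After 2 h Slc43a3, a carrier of purine nucleobases, was the 1 member that passed, against 1.4% of all genes. Slc43a3 read 9.23, 9.04 and 8.62 in controls and 9.24, 9.997 and 10.16 in deleted cells, a difference of 0.84 (SE 0.19, adjusted p = 0.0281) or 1.79-fold. The lowest deleted array lay just above the highest control array, and the other deleted arrays lay well above. The mean of the 16 endothelial markers on the same deleted arrays was 8.36, 9.17 and 9.25, against 7.75 to 8.05 in controls, and the part of other cells in this result was not tested. Slc43a3 passed in 2 of 6 fits with 1 array left out. After a second quantile normalization Slc43a3 was at 0.81 (adjusted p = 0.0730). The 1 member that passed was then Slc1a3, lower at -0.73 (adjusted p = 0.0322), against 1.74% of all genes. In the fit to the values as deposited, the difference of Slc43a3 was 0.53 at 0 h (adjusted p = 0.282) and 0.38 at 24 h (adjusted p = 0.0985).

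At 24 h 15 of the 37 transporters of the brighter range were lower in Cebpa-deleted cells, a share near the 42.5% of all genes in that range. They were led by Slc38a4, Slc1a3, Slc43a2, Slc3a1, Slc1a5 and Slc7a5, at 35.1% to 64.8% of control. Over all 64 members 40 passed, 25 higher and 15 lower. The counts by family take bright and dim members together. By family, 1 Slc1a gene was higher and 3 lower of 7, both Slc3a genes were lower, and in Slc6a 12 were higher and 3 lower of 21. In Slc7a 5 were higher and 4 lower of 16, in Slc38a 4 and 2 of 11, in Slc43a 1 and 1 of 3 and in Slc36a 2 and 0 of 4. Of all genes 50.7% passed, 24.3% higher and 26.4% lower. All 15 lower members were among the 37 of the brightest 60 percent, where 4 were higher and 18 did not pass. In that range 12.3% of all genes were higher and 42.5% lower, and the median difference was -0.26 for the members and -0.20 for all genes. Of the 27 members in the dimmest 40 percent, 21 were higher and none lower, and all 27 differences were above 0; there 42.4% of all genes were higher and 2.24% lower, with a median of 0.27, against 0.42 for these members.

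**Figure D1:**
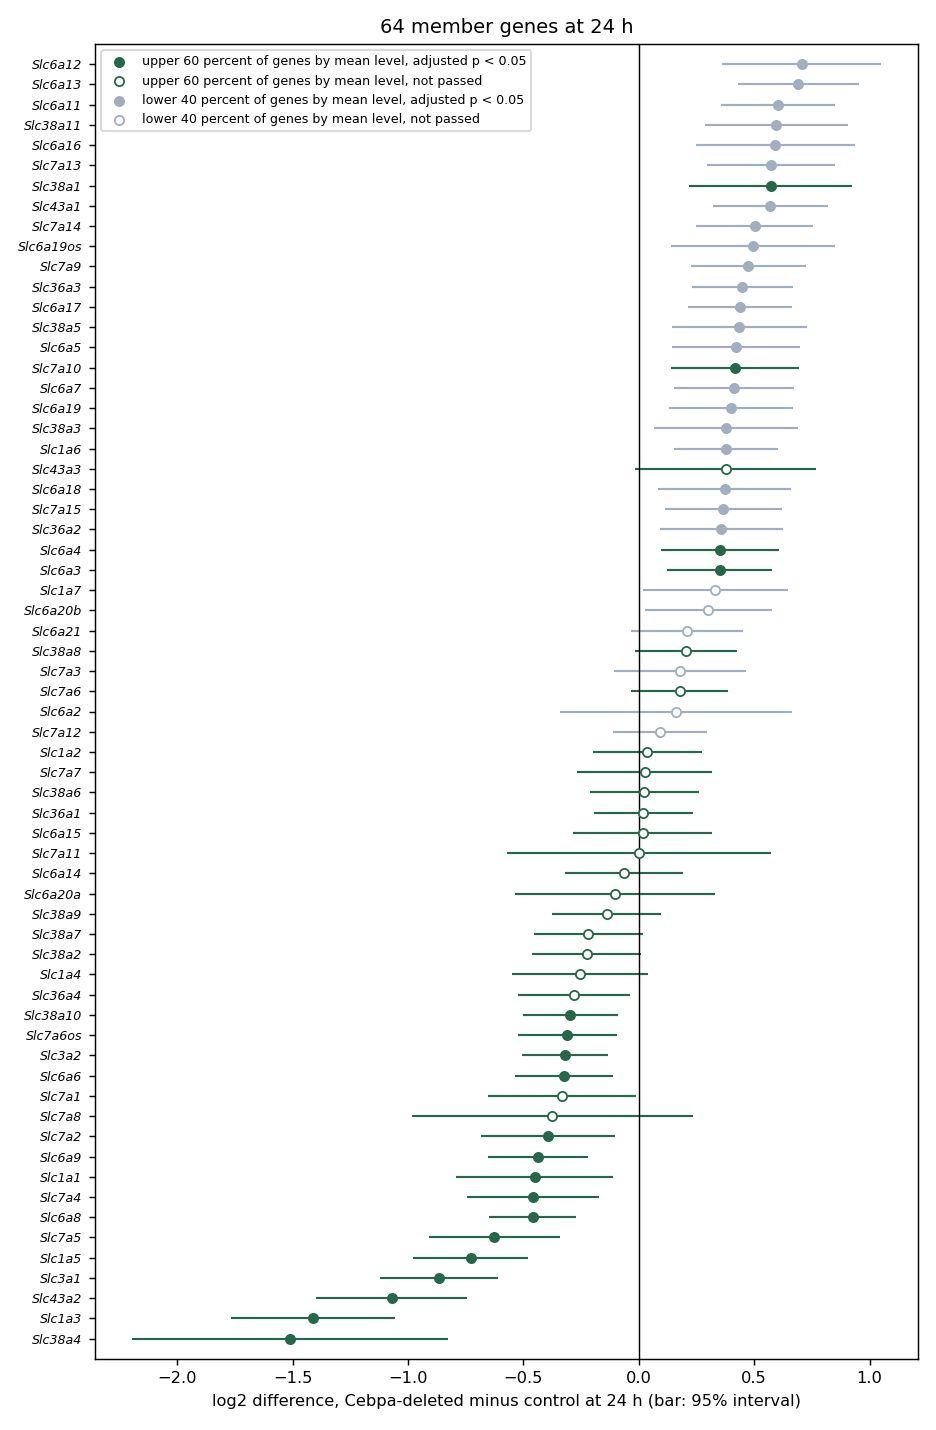
The log2 difference between Cebpa-deleted and control cells at 24 h is plotted for each of the 64 member genes, with bars for the 95% interval; filled points passed at an adjusted p below 0.05, and colour separates the brightest 60 from the dimmest 40 percent of genes, ranked by mean level. The 15 filled points left of 0 are all of the upper range, and Slc38a4 at -1.51 and Slc1a3 at -1.41 lie farthest to the left.

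Of the glutamate carriers of the Slc1a family, Slc1a3 and Slc1a1 were lower, Slc1a6 was higher, and Slc1a2 and Slc1a7 did not pass. Slc1a3 takes up glutamate and aspartate and is best known from astrocytes. Slc1a3 at 24 h read 8.87, 8.62 and 8.82 in controls and 7.37, 7.15 and 7.57 in deleted cells. The groups were separated by more than a unit on the log2 scale, and the difference was -1.41 (SE 0.17, adjusted p = 4.89e-05), 37.6% of control. At 2 h Slc1a3 differed by -0.62 with overlapping groups (adjusted p = 0.0759), and at 0 h by -0.23 (adjusted p = 0.777). The genotype difference of Slc1a3 at 24 h was itself lower than at 0 h (interaction -1.18, adjusted p = 0.0131) and than at 2 h (interaction -0.79, adjusted p = 0.0240).

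Slc1a5 exchanges glutamine and other small neutral amino acids. Slc1a5 read 9.97, 10.02 and 10.06 in controls at 24 h and 9.11, 9.14 and 9.60 in deleted cells. No deleted array reached a control array, and the difference was -0.73 (SE 0.12, adjusted p = 0.000316). At 0 h and 2 h the groups of Slc1a5 overlapped, and the difference at 2 h was 0.01. Slc1a1, a glutamate and cysteine carrier, passed with overlapping groups, at 8.33, 8.21 and 7.64 in controls and 7.47, 7.52 and 7.84 in deleted cells (difference -0.45, SE 0.16, adjusted p = 0.0281). Slc1a4, which carries alanine, serine and cysteine, differed by -0.26 (95% interval -0.55 to 0.04, adjusted p = 0.131). The remaining Slc1a genes are glutamate carriers known mainly from the nervous system and retina, of which Slc1a6 was higher by 0.38 (adjusted p = 0.00865) and Slc1a7 and Slc1a2 did not pass.

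Slc38a genes encode sodium-coupled neutral amino acid carriers, and they did not move together. Slc38a4 at 24 h read 8.56, 9.46 and 9.22 in controls and 7.16, 7.11 and 8.45 in deleted cells. The highest deleted array lay just under the lowest control array, so the groups touched without overlapping. The difference of -1.51 carried the largest error of the lower members (SE 0.33, adjusted p = 0.00181), and its 95% interval ran from -2.19 to -0.83.

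Slc38a1, which takes up glutamine, was higher instead. Slc38a1 read 8.08, 7.69 and 7.69 in controls and 8.52, 8.23 and 8.43 in deleted cells, without overlap and with a difference of 0.57 (SE 0.17, adjusted p = 0.0106). Its second feature on the array gave 0.47. Slc38a2, a carrier that cells induce when amino acids are scarce, differed by -0.23 (95% interval -0.46 to 0.01, adjusted p = 0.101), at 12.36, 12.43 and 12.31 in controls and 12.07, 12.11 and 12.24 in deleted cells. Slc38a10 was lower (difference -0.30, adjusted p = 0.0193), but at -0.19 without deleted replicate 2 it did not pass (adjusted p = 0.128). For Slc38a9, a lysosomal arginine sensor, the 2 features went opposite ways, at -0.14 for the one used and 0.43 for the other, and the first did not pass (adjusted p = 0.301).

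The heavy chains and their partners form the exchange systems for large neutral, cationic and cystine substrates. Slc3a2, the heavy chain shared by the light chains Slc7a5, Slc7a6, Slc7a7, Slc7a8, Slc7a10 and Slc7a11, read 12.21, 12.36 and 12.44 in controls at 24 h and 11.92, 11.98 and 12.16 in deleted cells. The groups were separate but near, and the difference was -0.32 (SE 0.09, adjusted p = 0.00737). Slc7a5, the light chain that imports leucine and other large neutral amino acids, read 10.20, 10.24 and 10.40 in controls and 9.62, 9.42 and 9.92 in deleted cells. That difference, also without overlap, was -0.63 (SE 0.14, adjusted p = 0.00190).

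Slc3a1, the heavy chain of the cystine and dibasic amino acid carrier known from kidney, read 7.83, 7.54 and 7.45 in controls and 6.78, 6.64 and 6.80 in deleted cells. Every deleted array lay below every control array, at 54.8% of control on average (difference -0.87, SE 0.12, adjusted p = 0.000123). Its light chain Slc7a9, in the dimmer range, was higher by 0.48 (SE 0.12, adjusted p = 0.00432). Slc43a2, a sodium-independent carrier of large neutral amino acids, read 8.97, 9.16 and 9.14 in controls and 7.83, 7.86 and 8.35 in deleted cells. Here too the groups were apart, at 47.6% of control (difference -1.07, SE 0.16, adjusted p = 0.000157). The related Slc43a1 was higher by 0.57 (SE 0.12, adjusted p = 0.00147).

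Slc7a11, the cystine and glutamate exchanger, did not differ detectably by genotype at 24 h. Slc7a11 read 9.01, 8.83 and 8.84 in controls and 8.79, 8.69 and 9.19 in deleted cells, with an interval of the difference from -0.57 to 0.57. Its spread was wide at 2 h, from 7.35 to 8.97 in controls, and Slc7a11 passed in none of the 12 comparisons, as did Slc1a2, Slc1a4, Slc38a7, Slc7a3 and Slc7a7. Of the cationic amino acid carriers, which supply arginine, Slc7a2 was lower with overlapping groups (difference -0.39, adjusted p = 0.0253), at -0.60 without deleted replicate 4, and Slc7a1 differed by -0.33 (adjusted p = 0.0760). Slc7a4, whose transport activity is not established, was lower (difference -0.46, SE 0.14, adjusted p = 0.0112), as was Slc7a6os (difference -0.31, adjusted p = 0.0187), and Slc7a10, an exchanger of small neutral amino acids, was higher by 0.42 (adjusted p = 0.0154). Slc7a8, the light chain of a system for small and large neutral amino acids, differed by -0.37 (adjusted p = 0.281), and Slc7a7 by 0.02 (adjusted p = 0.887).

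Slc6a genes of the brighter range differed by small amounts, some lower and some higher. Slc6a8, the creatine carrier, read 8.64, 8.54 and 8.48 in controls and 7.97, 8.08 and 8.24 in deleted cells, a difference of -0.46 (SE 0.09, adjusted p = 0.000980) without overlap. Slc6a9, a glycine carrier, was lower (difference -0.44, SE 0.10, adjusted p = 0.00321), and so was the taurine carrier Slc6a6 (difference -0.33, adjusted p = 0.0139), which at -0.21 without deleted replicate 2 did not pass (adjusted p = 0.102). The carriers of dopamine, Slc6a3, and of serotonin, Slc6a4, were each higher by 0.35 (adjusted p = 0.0138 and 0.0245). Slc6a14, which takes up neutral and cationic amino acids in epithelia, differed by -0.07 (95% interval -0.32 to 0.19, adjusted p = 0.661). The noradrenaline carrier Slc6a2, of the dimmer range, differed by 0.16 (adjusted p = 0.583), and the proton-coupled lysosomal carrier Slc36a1 by 0.02 (adjusted p = 0.877).

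The dim members were higher or within error in deleted cells. The largest differences were 0.71 for the betaine and GABA carrier Slc6a12, 0.69 for the GABA carrier Slc6a13 and 0.60 for the GABA carrier Slc6a11. Slc38a11 read 5.34, 5.43 and 5.33 in controls and 5.72, 5.74 and 6.43 in deleted cells, so that its difference of 0.60 became 0.36 without deleted replicate 4. Slc6a16 was higher by 0.59, Slc7a13 by 0.57, Slc7a14 by 0.50 and Slc6a19os by 0.49. Slc36a3 differed by 0.45, Slc6a17 by 0.44, Slc38a5 by 0.44, Slc6a5 by 0.42, Slc6a7 by 0.41 and Slc6a19 by 0.40. The last of those that passed were Slc38a3 at 0.38, Slc6a18 and Slc7a15 at 0.37 and Slc36a2 at 0.36. Members of the dimmest 40 percent averaged 5.86 to 5.93 on the control arrays at 24 h and 6.21 to 6.38 on the deleted arrays, while members of the brighter range averaged 8.44 to 8.48 and 8.13 to 8.35.

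**Figure D2:**
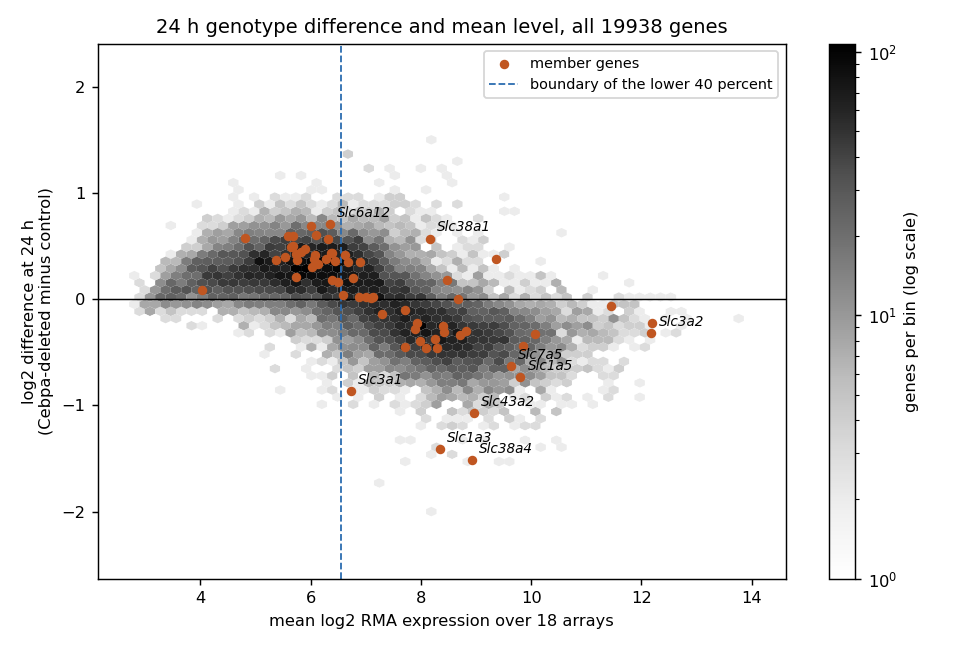
The log2 difference at 24 h is plotted against the mean level of each gene over 18 arrays, with all genes as grey bins on a log scale of counts, the members as points and the boundary of the dimmest 40 percent as a broken line at 6.55. Members lie above 0 at low levels and mostly below 0 at higher ones, as most genes do. Among the members Slc38a4, Slc1a3, Slc43a2 and Slc3a1 lie farthest below 0, and Slc38a1 lies highest in the brighter range. Their distance from other genes of like level was not measured.

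The calls at 24 h changed with how array width was treated. With array width as a covariate no member passed, against 0.0201% of all genes. Slc3a1 was at -0.85 (SE 0.22), Slc7a5 at -0.74 (SE 0.24) and Slc6a8 at -0.43 (SE 0.15), near their values without the covariate but with larger errors. Slc1a3 was then at -0.56, Slc43a2 at -0.34 and Slc38a4 at -0.14, nearer to 0 than before. Without the 2 narrowest arrays, deleted replicates 1 and 2, the deleted group at 24 h is 1 array whose spread is taken from the other groups. In that fit Slc1a3 was at -1.20, Slc3a1 at -0.81 and Slc38a11 at 1.06. The array kept was deleted replicate 4, on which Slc38a11 read 6.43, against 5.72 and 5.74 on the 2 left out. After a second quantile normalization, which gives every array the same distribution, 20 members passed, against 33.6% of all genes. The lower ones were Slc38a4, Slc1a3, Slc3a1, Slc43a2, Slc1a5 and Slc7a4, while Slc7a5 was at -0.27 (adjusted p = 0.161) and Slc3a2 at -0.05 (adjusted p = 0.609).

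The stretches of 250 bases before the transcription start of 3 of the strongest movers and of Slc7a11 are shown to let the letters be read beside the values. RefSeq windows on GRCm38.p6 existed for 47 of the 64 members. Capitals mark TGATGNAA, the core of the amino acid response element bound by ATF4 and C/EBP dimers, and TTNNGNAA, letters shared by many C/EBP sites, each searched on both strands; in the windows printed the 2 motifs do not overlap.
Slc3a1, chr17:85028097-85028346, plus strand: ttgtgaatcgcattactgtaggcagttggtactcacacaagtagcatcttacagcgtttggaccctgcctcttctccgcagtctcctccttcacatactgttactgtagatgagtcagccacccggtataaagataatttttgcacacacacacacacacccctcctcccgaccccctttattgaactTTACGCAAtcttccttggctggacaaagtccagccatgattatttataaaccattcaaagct
Slc1a3, chr15:8710808-8711057, minus strand: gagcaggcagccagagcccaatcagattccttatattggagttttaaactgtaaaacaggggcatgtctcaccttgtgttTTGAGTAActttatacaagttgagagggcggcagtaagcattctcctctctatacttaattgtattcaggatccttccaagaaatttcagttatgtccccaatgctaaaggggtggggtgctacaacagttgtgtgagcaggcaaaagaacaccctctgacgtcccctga
Slc38a4, chr15:97055957-97056206, minus strand: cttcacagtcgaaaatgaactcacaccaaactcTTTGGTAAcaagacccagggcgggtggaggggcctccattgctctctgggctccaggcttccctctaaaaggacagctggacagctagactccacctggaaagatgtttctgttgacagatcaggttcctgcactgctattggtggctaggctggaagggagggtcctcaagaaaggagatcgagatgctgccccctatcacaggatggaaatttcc
Slc7a11, chr3:50443614-50443863, minus strand: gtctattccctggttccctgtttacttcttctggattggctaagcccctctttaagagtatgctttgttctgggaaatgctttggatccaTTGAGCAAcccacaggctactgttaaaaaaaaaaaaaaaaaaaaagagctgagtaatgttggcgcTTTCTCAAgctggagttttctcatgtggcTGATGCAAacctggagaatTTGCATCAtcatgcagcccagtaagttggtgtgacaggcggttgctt

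In the Slc7a11 window TGATGNAA occurs on each strand, beginning 66 and 47 bases before the start. The motif was in the windows of 3 of the 47 members, Slc7a11, Slc7a7 and Slc6a21, or 6.38%, against 3.91% of all genes with a window. TTNNGNAA was in the windows of 20 members, 42.6%, against 40.3% of all genes. It begins 62 bases before the start of Slc3a1, where the same letters match on both strands, 170 bases before that of Slc1a3 and 217 bases before the most upstream of 3 starts of Slc38a4. None of the 3 members with TGATGNAA passed the test by genotype, and the matches describe letters only.

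From 2 to 24 h in control cells 6 members rose and Slc7a6 fell, against 7.97% of all genes rising and 4.46% falling, 12.4% in all. These arrays were nearer in width to each other than to those at 0 h. Their interquartile ranges did not overlap, at 2.13 to 2.38 at 2 h and 2.44 to 2.52 at 24 h. All 6 rises were in the brighter range, whose own share of rises is given below with the gene lists. The rises were in both heavy chains, in the light chain Slc7a5, in the creatine carrier Slc6a8, in the cationic carrier Slc7a1 and in Slc7a6os. Slc3a1 went from 6.39, 6.30 and 6.23 at 2 h to 7.83, 7.54 and 7.45 at 24 h. The groups were far apart, and the change was 1.30 (SE 0.12, adjusted p = 3.08e-06) or 2.46-fold.

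Slc7a5 in control cells read 9.59, 9.45 and 9.18 at 2 h and 10.20, 10.24 and 10.40 at 24 h. All arrays at 24 h were above all at 2 h, with a change of 0.87 (SE 0.14, adjusted p = 0.000354). Slc6a8 went from 8.06, 8.07 and 7.91 to 8.64, 8.54 and 8.48, also without overlap (0.54, SE 0.09, adjusted p = 0.000573). Slc7a5, Slc3a1 and Slc6a8 passed in all 6 fits with 1 array left out.

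Slc3a2 in controls read 12.002, 12.03 and 12.02 at 2 h, a narrow group, and rose by 0.32 (SE 0.09, adjusted p = 0.0227). Slc7a1 rose by 0.48 (adjusted p = 0.0450) and Slc7a6os by 0.36 (adjusted p = 0.0291), whereas Slc7a6 fell by 0.36 (adjusted p = 0.0254). These 4 calls were less firm, each passing in 1 or 2 of the 6 fits with an array left out. Slc7a11 was at 0.66 in controls and at 0.62 in deleted cells, and neither passed.

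In Cebpa-deleted cells from 2 to 24 h, 11 members rose and 6 fell, against 11.8% of all genes rising and 19.6% falling, 31.4% in all. The largest fall was in Slc7a8, from 9.69, 8.89 and 8.63 to 7.62, 7.45 and 7.89 (change -1.42, SE 0.29, adjusted p = 0.00215). The 2 h arrays of this gene were spread over about a unit and all lay above those at 24 h. Slc6a9 fell by 0.66 (adjusted p = 0.000402), Slc7a4 by 0.64 (adjusted p = 0.00289), Slc43a2 by 0.61 (adjusted p = 0.00797), Slc1a5 by 0.54 (adjusted p = 0.00340) and Slc38a10 by 0.40 (adjusted p = 0.00610). Without deleted replicate 2 at 2 h the Slc43a2 change was -0.40 and did not pass (adjusted p = 0.0551).

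Slc3a1 also rose in deleted cells, from 6.25, 6.32 and 6.24 to 6.78, 6.64 and 6.80 (0.47, SE 0.12, adjusted p = 0.00907), without overlap. Slc7a10 rose by 0.35, and the other 9 rises were dim members, from 0.32 for Slc6a11 to 0.51 for Slc7a13. They included Slc43a1 at 0.33, Slc6a17 at 0.37, Slc6a19 at 0.41, Slc36a3 and Slc7a9 at 0.44, Slc6a13 at 0.45 and Slc6a12 at 0.49, the last at 0.29 and not passing without deleted replicate 2 at 2 h (adjusted p = 0.195). Slc7a5, at 9.17, 9.24 and 9.58 at 2 h and 9.62, 9.42 and 9.92 at 24 h, had overlapping groups and did not pass, nor did Slc3a2 or Slc6a8.

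**Figure D3:**
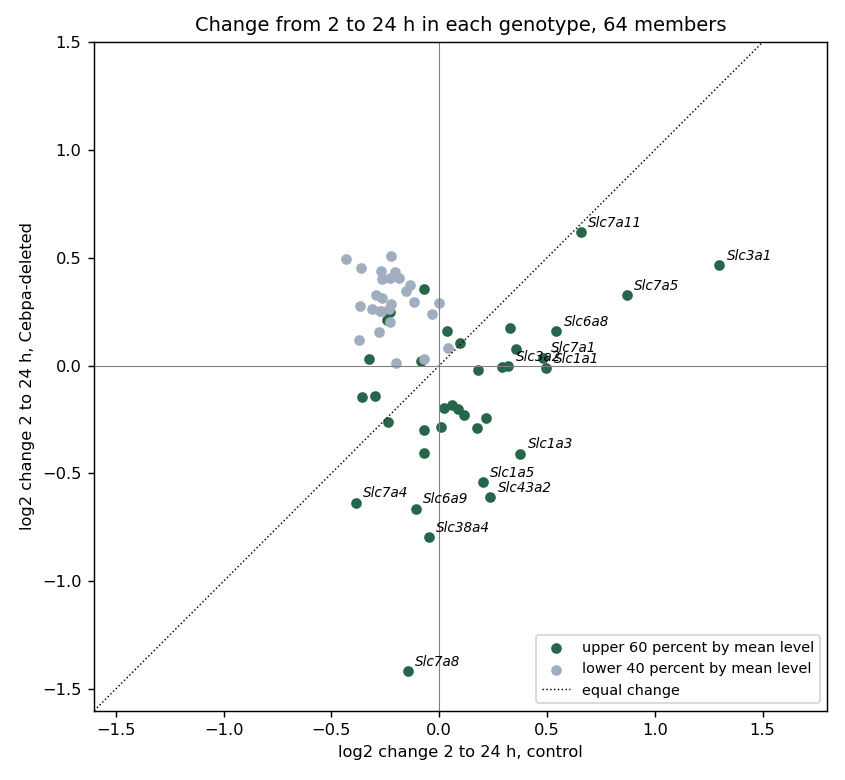
Each point is 1 member gene, with its log2 change from 2 to 24 h in control cells on the horizontal axis and in Cebpa-deleted cells on the vertical axis, and the dotted line marks equal change. Slc3a1 (1.30 against 0.47) and Slc7a5 lie to the right below the line, Slc7a8 (-1.42 in deleted cells) lies far below it, Slc7a11 lies close to it, and the dim members gather above it.

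Whether the genotypes differed in this change was tested by the interaction, in which 18 members were higher and 9 lower, against 14.3% and 16.5% of all genes, 30.8% in all. The 9 lower were Slc7a8 at -1.27, Slc43a2 at -0.85, Slc3a1 at -0.83, Slc1a3 at -0.79, Slc1a5 at -0.74, Slc6a9 at -0.55, Slc7a5 at -0.54, Slc38a9 at -0.47 and Slc6a8 at -0.38, with adjusted p from 0.00579 for Slc3a1 to 0.0404 for Slc7a5. The other Slc38a9 feature was at 0.42, and with features averaged Slc38a9 was at -0.02 and did not pass (adjusted p = 0.906). All 9 were in the brighter range, and of the 18 higher members 16 were in the dimmer range. Slc38a4, with a change of -0.80 in deleted cells, was not among them. The means of Slc7a8 were 9.07 in deleted and 8.17 in control cells at 2 h, and 7.65 and 8.03 at 24 h. Its genotype difference passed at neither of these times. Between 0 and 24 h the interaction passed for 12 members, 5 higher and 7 lower, against 5.46% and 8.88% of all genes, 14.3% in all. Between 0 and 2 h it passed for none of the members and 0% of all genes in the limma fit, with 3 members at an unadjusted p below 0.05.

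**Figure D4:**
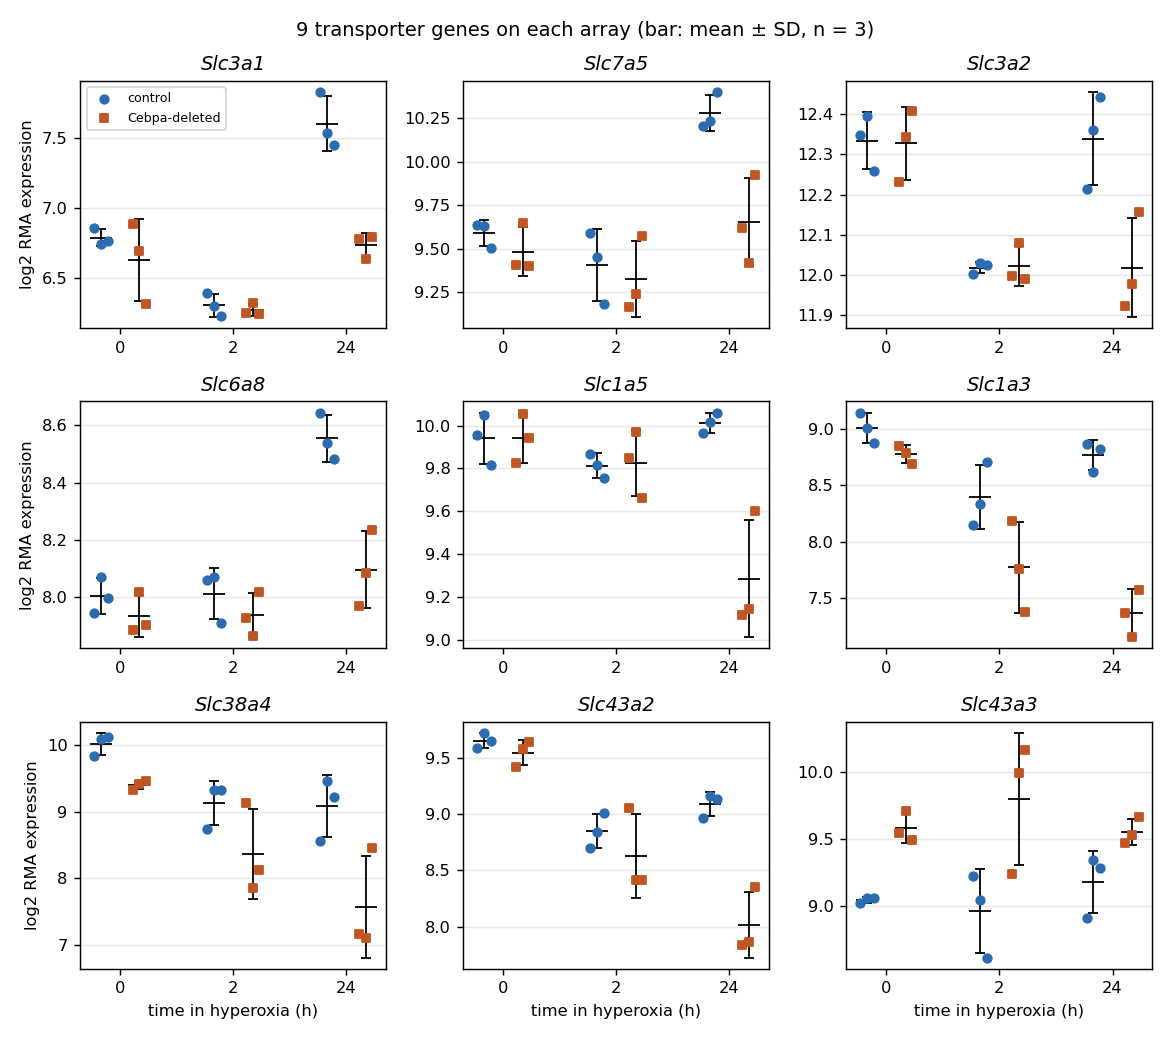
Expression on the log2 scale is plotted for 9 transporter genes on each array, by time in hyperoxia in h, with circles for control and squares for Cebpa-deleted cells and bars for the mean and SD of 3 arrays. At 24 h the 2 genotypes are apart in 8 of the panels, with controls above, while in the ninth, Slc43a3, the deleted arrays lie above.

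From 0 to 2 h most of the transporters moved in both genotypes, as most genes did, in a comparison between arrays of different width. In controls 27 members rose and 12 fell, while of all genes 30.7% rose and 39.4% fell, 70.1% in all. In deleted cells 24 rose and 14 fell, while of all genes 26.9% rose and 36.2% fell, 63.1% in all. In controls the largest falls were Slc38a4 at -0.89, Slc43a2 at -0.80, Slc38a9 at -0.68, Slc1a3 at -0.62 and Slc36a1 at -0.49, and the largest rises were Slc6a12 at 1.17, Slc6a16 at 1.07, Slc6a13 at 1.06, Slc7a12 at 0.98 and Slc6a5 at 0.92. In deleted cells the falls were led by Slc38a4 at -1.03, Slc1a3 at -1.01, Slc43a2 at -0.92, Slc7a6os at -0.59 and Slc38a9 at -0.44. The rises there were led by Slc6a16 at 1.15, Slc6a12 at 1.01, Slc6a2 at 0.92, Slc7a12 at 0.90 and Slc38a3 at 0.87. The other Slc38a9 feature went the other way, at 0.20 in controls and 0.26 in deleted cells. After a second quantile normalization 29 members rose and 5 fell in controls, with 25 of the 39 calls kept, and 27 rose and 5 fell in deleted cells, with 21 of the 38 kept. Of all genes 41.9% then passed in controls and 38.8% in deleted cells. All of the rises named were in dim members. With array width as a covariate 2 members passed in each genotype, against 4.71% of all genes in controls and 5.99% in deleted cells.

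From 0 to 24 h controls showed 24 rises and 7 falls among members, while of all genes 25.3% rose and 34.6% fell, 59.9% in all. In deleted cells 30 members rose and 17 fell, while of all genes 36% rose and 41.5% fell, 77.6% in all. Slc3a1, which read 6.86, 6.75 and 6.76 at 0 h in controls and 6.39, 6.30 and 6.23 at 2 h, was higher at 24 h than at 0 h by 0.82 (SE 0.12, adjusted p = 2.71e-05). It was the 1 gene of the brighter range among the 5 largest rises in controls, beside Slc6a16 at 0.85, Slc7a12 at 0.78, Slc6a12 at 0.74 and Slc6a19 at 0.73. Falls in controls were led by Slc38a4 at -0.93, Slc7a4 at -0.62, Slc43a2 at -0.56 and Slc38a9 and Slc38a10 at -0.50. The other Slc38a9 feature was at 0.14, and with features averaged 6 members fell. In deleted cells Slc38a4 fell by 1.83, Slc43a2 by 1.53, Slc1a3 by 1.42, Slc7a4 by 1.02 and Slc7a8 by 0.93, and the rises ran up to 1.55 for Slc6a16, followed by Slc6a12 at 1.503, Slc7a9 at 1.28, Slc6a13 at 1.26 and Slc6a19os at 1.23. After a second quantile normalization 27 members rose and 1 fell in controls, with 18 of the 31 calls kept, and 39 rose and 7 fell in deleted cells, with 34 of the 47 kept. Of all genes 40.7% then passed in controls and 61.6% in deleted cells.

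Genes that act with the carriers in amino acid supply were described by counts. In controls from 2 to 24 h the median of 28 measured genes of the amino acid response was 0.31. The median was -0.06 for all genes and 0.007 for all genes of the brighter range. Of the 28 genes, 9 rose and none fell. They were led by asparagine synthetase, Asns, at 0.98 (adjusted p = 0.000488), the transcription factor Atf5 at 0.97, the lipoprotein receptor Vldlr at 0.82 and the folate enzyme Mthfd2 at 0.78. By genotype at 24 h, in a comparison that shares the control arrays, 19 of the 28 were lower and 3 higher. The median of the 28 was -0.41, against 0.05 for all genes and -0.20 for all genes of the brighter range. The lowest were Cth, which makes cysteine, at -1.59, Vldlr at -1.39, Asns at -0.99 and Atf3 at -0.94. In deleted cells from 2 to 24 h, 5 of the 28 rose and 4 fell. For these and the following lists, from 2 to 24 h 7.97% of all genes rose and 4.46% fell in controls, and 11.8% rose and 19.6% fell in deleted cells, or 12.02%, 3.43%, 6.22% and 32.0% in the brighter range.

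Of 18 measured cytosolic aminoacyl-tRNA synthetases, which charge tRNAs with amino acids, 7 rose and none fell in controls from 2 to 24 h, and in deleted cells none rose and 6 fell, a share near that of the brighter range. The rises were led by Sars at 0.78, Eprs at 0.55, Mars1 at 0.54 and Cars at 0.48. At 24 h 12 of the 18 were lower in deleted cells and none higher, led by Mars1 at -0.74, Sars at -0.72, Qars at -0.64 and Eprs at -0.54. Of 23 measured genes of amino acid sensing by mTORC1, 15 were lower at 24 h and none higher, among them the Rag GTPases Rragd at -0.95 and Rragb at -0.84 and the folliculin gene Flcn at -0.80. From 2 to 24 h in controls 5 of these rose, led by the folliculin partner Fnip1 at 0.95.

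Of 19 measured genes of cystine and glutathione handling, 4 rose in controls from 2 to 24 h: Nqo1 at 0.82, Cdo1 at 0.71 and the glutamate-cysteine ligase subunits Gclm at 0.42 and Gclc at 0.35. By genotype at 24 h 7 were lower, led by the aminopeptidase Anpep at -1.57, and 1, Dpep1, was higher at 0.54. Of 21 measured enzymes of amino acid metabolism, 14 were lower at 24 h and 1 higher, led by the arginase Arg2 at -1.35 and glutamine synthetase, Glul, at -0.92. Among 16 amino acid and peptide carriers of other families, 5 were lower and 1 higher at 24 h, with the lysosomal cystine exporter Ctns at -0.999 and the peptide carriers Slc15a1 at -0.71 and Slc15a2 at -0.66. Slc16a10, a carrier of aromatic amino acids, was higher in deleted cells by 0.54 at 0 h (adjusted p = 0.0222) and by 0.62 at 2 h (adjusted p = 0.00813). At 24 h these lists are read against the 26.4% of all genes, and 42.5% in the brighter range, that were lower.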

How the data were processed

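Total RNA of isolated type II cells was hybridized by the authors to 18 arrays, and the authors deposited log2 values, made with RMA per the submitters' processing notes. The RMA version, the genome build, any filter and which arrays were normalized together are not given in the sources used here. Of 35557 features, 21789 had 1 gene symbol, 1621 several and 12147 none. Features without exactly 1 symbol were left out, and for 999 genes with several features the one of highest mean was used, giving 19938 genes without a filter on low values. Signal over background is not given, so the number of arrays limits the precision.

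The 6 group means were fitted with limma 3.58.1 (lmFit and eBayes) in R 4.3.3, with 12 contrasts, two-sided p-values and Benjamini-Hochberg adjustment over all genes at 0.05. The members, the gene lists and the comparisons were chosen with earlier results of these data known. Named were members called by genotype or interaction, up to 10 in each direction from 2 to 24 h, the 5 largest each way from 0 h, 25 fixed members, and up to 4 called genes of each of 6 pathway lists. Markers of 10 cell types were counted. Control and deleted arrays of the same number did not deviate together: the correlations were -0.04, 0.00 and 0.04 at 0 h, -0.24 and -0.22 at 2 h and 0.05 and 0.06 at 24 h. Between control and deleted arrays of different number at 2 h the correlations ran from -0.57 to 0.63, so deviations there were not unrelated across genotypes.

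Other settings, changed 1 at a time, were each array left out, a second quantile normalization, median centring, only the groups compared, the replicate block, features of a gene averaged, the upper 60 percent of genes, eBayes with trend and robust settings, and array width as a covariate. Added after the data were seen were leaving out the 2 narrowest arrays and using only the 12 arrays at 2 and 24 h. Tested on simulated data (19938 genes, of which 50 per fold size were changed), the fit recovered 12% of 1.25-fold, 78% of 1.5-fold and 100% of 2-fold changes at 24 h, with 12 false calls. The simulated arrays had independent errors, few changed genes and no difference in width between groups. The number of false calls therefore does not carry over to the real arrays, which differ in width. Promoter windows were the 250 bases before RefSeq starts on GRCm38.p6. Figures were drawn with matplotlib 3.10.9.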

Additional observations from a re-analysis of the deposited data

Results flagged for a closer look

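The genotype difference itself differed between times for several members, as tested by interaction terms in the limma fit with adjusted p over all genes. Between 0 and 24 h the genotype difference fell for 7 members, by interaction values of -1.18 for Slc1a3, -0.96 for Slc43a2, -0.73 for Slc1a5, -0.71 for Slc3a1, -0.52 for Slc7a6os, -0.51 for Slc6a9 and -0.39 for Slc6a8. It increased for 5 members, by 0.76 for Slc6a12, 0.71 for Slc6a16, 0.68 for Slc7a9, 0.60 for Slc43a1 and 0.56 for Slc6a13. Adjusted p ran from 0.0131 to 0.0494, and 14.3% of all genes passed.

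Between 2 and 24 h it fell for 9 members, by -1.27 for Slc7a8, -0.85 for Slc43a2, -0.83 for Slc3a1, -0.79 for Slc1a3, -0.74 for Slc1a5, -0.55 for Slc6a9, -0.54 for Slc7a5, -0.47 for Slc38a9 and -0.38 for Slc6a8. The other feature of Slc38a9 was at 0.42, and its average over features was -0.02 and did not pass. The 18 increases, 16 of them in dim members, were 0.92 for Slc6a12, 0.81 for Slc6a13, 0.73 for Slc7a13, 0.71 for Slc7a9, 0.67 for Slc6a19os, 0.64 for Slc7a14 and Slc36a3, 0.63 for Slc6a16, 0.62 for Slc43a1, 0.59 for Slc6a19, 0.58 for Slc6a11 and Slc6a5, 0.53 for Slc36a2, 0.51 for Slc7a15 and Slc6a17, 0.48 for Slc38a8, 0.45 for Slc6a3 and 0.43 for Slc1a6. Slc6a16 was at 0.41 and did not pass without deleted replicate 2 at 2 h (adjusted p = 0.133). Adjusted p ran from 0.00579 to 0.0472, against 30.8% of all genes passing. Array width at 24 h was 1.82 to 2.13 in deleted and 2.44 to 2.52 in control cells, and its part in these values was not tested beyond the covariate fit.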

How the results depend on the processing

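With array width as a covariate the counts were 3 at 2 h by genotype (1 in the fit as reported), 0 at 24 h (40), 2 for control 0 to 2 h (39), 7 for control 0 to 24 h (31), 2 for deleted 0 to 2 h (38), 0 for deleted 0 to 24 h (47), 0 for deleted 2 to 24 h (17), and 0 for the interactions of 24 h with 0 h (12) and with 2 h (27). In the same order, 5.01%, 0.0201%, 4.71%, 16.9%, 5.99%, 0.196%, 0.577%, 0.00502% and 0% of all genes passed with the covariate. After a second quantile normalization the counts were 20 at 24 h by genotype and 5 and 8 for those interactions, against 33.6%, 6.08% and 13% of all genes. Among the upper 60 percent of genes the counts were 20 at 24 h by genotype, 16, 13, 17 and 22 for control 0 to 2 h and 0 to 24 h and deleted 0 to 2 h and 0 to 24 h, 10 for deleted 2 to 24 h and 12 for the interaction of 24 with 2 h, where fewer members were tested. In the same order, 56.6%, 70.5%, 62.3%, 65.8%, 78.7%, 41.8% and 34% of all genes of that range passed. With only the arrays compared the counts were 2 and 0 by genotype at 0 and 2 h, 14 for control 2 to 24 h and 4 for deleted 2 to 24 h. The shares of all genes were 0.717%, 0.00502%, 17.2% and 9.18%. With only the 12 arrays at 2 and 24 h the counts were 0 by genotype at 2 h and 4 for control 2 to 24 h, against 0.843% and 9.7% of all genes. The replicate number as a block gave 0 by genotype at 2 h, 37 at 24 h and 5 for the interaction of 24 with 0 h, against 0.311%, 39.7% and 3.89% of all genes. The replicate numbers did not pair the arrays. Leaving out the 2 narrowest arrays leaves deleted cells at 24 h with 1 array, assumed to vary like the other groups. Counts of that fit are therefore not given. In it the members lower at 24 h by genotype all lay nearer to 0 than in the fit as reported. Among them Slc43a2 was at -0.74, Slc38a4 at -0.63, Slc1a5 at -0.41 and Slc7a5 at -0.36. With 1 array left out the counts ran from 0 to 0 by genotype at 0 h, 0 to 3 at 2 h and 24 to 45 at 24 h, from 34 to 39, 26 to 29 and 3 to 6 for control 0 to 2, 0 to 24 and 2 to 24 h, from 33 to 39, 43 to 45 and 9 to 29 for the same in deleted cells, and from 0 to 0, 1 to 21 and 12 to 35 for the interactions of 2 with 0, 24 with 0 and 24 with 2 h. The shares of all genes in those fits ran, by genotype, from 0.16% to 0.697%, 0.125% to 3.66% and 30.7% to 55.1%. In controls the shares were 61.8% to 69.6%, 52.8% to 55% and 7.01% to 10.7%. In deleted cells the shares were 52.5% to 67%, 72.6% to 77.8% and 14.7% to 40.6%. For the interactions the shares were 0% to 0.00502%, 1.39% to 29.2% and 12.9% to 43.2%. The count of 24 at 24 h was without deleted replicate 2. The 3 at 2 h was without deleted replicate 2, and the call there was lost without control replicate 2 or 3 or deleted replicate 3 or 4. For control 2 to 24 h it was 3 and 4 without control replicates 1 and 2 at 2 h. For deleted 2 to 24 h it was 9 without replicate 2 of either time, 29 without replicate 4 at 2 h and 27 without replicate 4 at 24 h. For the interaction of 24 with 0 h it was 5 to 7 without any 1 control array at 0 h or control replicate 1 or 3 at 24 h, 3 without deleted replicate 2 at 0 h, 1 without deleted replicate 1 or 2 at 24 h and 21 without deleted replicate 4 at 24 h. For that of 24 with 2 h it was 12 to 17 without control replicate 1 or 2 or deleted replicate 2 or 3 at 2 h, control replicate 1 at 24 h or deleted replicate 1 or 2 at 24 h. Under other settings 9948 values were compared with the fit as reported: values of single genes, counts of the gene lists, and medians of the lists and members. Among them 8117 were marked as the same, and 1141 counts or medians moved. Of the single genes, the only values that could change sign against a call, 636 kept their sign but lost their call and 8 gained one. Changes of sign against a call numbered 46, 42 of them with the width covariate. With that covariate by genotype at 24 h the values were 0.14 for Slc7a4, 0.0052 for Slc7a6os, -0.0045 for Slc6a3, -0.10 for Slc6a4, -0.049 for Slc6a18, -0.057 for Slc38a3, -0.014 for Slc6a19, -0.047 for Slc6a7, -0.018 for Slc6a5, -0.093 for Slc7a9, -0.29 for Slc6a19os, -0.0054 for Slc7a13, -0.30 for Slc6a16 and -0.10 for Slc6a12. For control 0 to 2 h they were 1.10 for Slc38a4, 0.26 for Slc43a2, 0.61 for Slc1a3, -0.22 for Slc6a16 and 0.31 for Cebpa. For control 0 to 24 h they were 0.47 for Slc38a4, 0.19 for Slc43a2, -0.083 for Slc6a12 and -0.072 for Slc6a16. For deleted 0 to 2 h they were 0.58 for Slc38a4 and -0.0079 for Slc6a2. For deleted 0 to 24 h they were 0.85 for Slc38a4, 0.24 for Slc1a3, 0.15 for Slc7a4, 1.42 for Slc7a8, -0.31 for Slc6a19os, -0.073 for Slc6a12 and -0.20 for Slc6a16. For deleted 2 to 24 h they were -0.018 for Slc6a11, -0.0038 for Slc7a9 and -0.13 for Slc6a12. For the interaction of 24 with 0 h it was -0.12 for Slc6a16. For the interaction of 24 with 2 h they were 0.17 for Slc7a8, 0.035 for Slc43a2, 0.23 for Slc1a3, -0.44 for Slc6a16, -0.28 for Slc6a19os and -0.044 for Slc6a12. The other 4 were 0.018 for Slc7a2 by genotype at 24 h without the 2 narrowest arrays, 0.032 for Slc6a6 by genotype at 24 h after quantile normalization, 0.027 for Slc38a10 by genotype at 24 h after quantile normalization and 0.094 for Cebpa for control 0 to 2 h after quantile normalization. The cause of these changes was not tested.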
